A study of Mus musculus with 18 samples.

Results

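The 10 genes described here are those of the G1 decision of the cell cycle, chosen by name: the D cyclins Ccnd1, Ccnd2 and Ccnd3, their kinases Cdk4 and Cdk6, the inhibitors Cdkn1a (p21) and Cdkn1b (p27), and the pocket proteins Rb1, Rbl1 (p107) and Rbl2 (p130). They are 10 of 24498 genes in the table, and all 10 were among the 14711 genes with enough signal to test. RNA was sequenced from embryonic day 7.5 mouse embryos, which are gastrulating, to ask what the loss of a short α-helix of the pioneer factor FoxA2 does to gene expression. All embryos were homozygous for FoxA2 fused to the red fluorescent protein tagRFP, so the WT controls carry the fusion on both alleles too. WT embryos had the intact fusion (FoxA2-WT-tagRFP) and ΔHx embryos a fusion that lacks 10 residues (FoxA2-ΔHx-tagRFP). Dissociated cells were sorted by tagRFP signal into High (above heterozygous cells), Mid (above autofluorescence, up to the heterozygous maximum) and Neg (no signal). Each of the 6 groups of genotype and gate had 3 libraries, 18 in all. Each sort pooled about 10 embryos of a mixed C57Bl6/J x CD-1 background, not sexed and with the extra-embryonic portion removed, gave 2500 to 5000 cells, and the RNA of 1000 cells entered a SMART-Seq2 library. Per the labels these are biological replicates, and no day or litter is named that equal numbers would share.

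D cyclins bind Cdk4 or Cdk6 in response to growth signals, and the complexes phosphorylate the pocket proteins. Phosphorylation frees E2F factors to switch on the genes of S phase, while p21 and p27 restrain cyclin E and Cdk2 and also bind the cyclin D complexes. Cells of the gastrulating embryo divide fast, and the cells of the node, from which the notochord forms, are known to leave the cycle early.

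Values are normalised read counts, that is gene counts divided by a size factor per library, so that 1 read is worth 0.825 to 1.37. Libraries held 12302196 to 17194136 reads in genes, of which the ribosomal RNA precursor Rn45s took 23.7% to 44.0%. Foxa2 itself followed the gates in both genotypes (1927 ± 490.1 in WT High, 768 ± 131 in WT Mid and 28.2 ± 10.9 in WT Neg; ΔHx 2104 ± 269, 796 ± 377 and 53.6 ± 9.65; mean ± SD, n = 3 here and below). The removed helix is too short for a gene count to check the genotype. The 8 node and notochord markers were Foxa2, Shh, Noto, Foxj1, T, Chrd, Nog and Cer1. T had a mean of 2124 in WT Neg, and T and Cer1 had 12424 and 11433 in WT High. The summed level of the 8 was 34599 to 49593 in WT High and 1932 to 3775 in WT Neg. That of 9 visceral endoderm markers was 37066 to 45398 in WT Mid, 3195 to 8101 in WT High and 1425 to 1596 in WT Neg, and that of 7 mesoderm markers 7246 to 8661 in WT Neg against 374 to 740 in WT High. The gates therefore hold different cells, and in such bulk samples fewer cells of a type and less RNA per cell cannot be told apart. WT Mid replicate 1 stood apart, with 8 parietal endoderm markers at a summed 226747 against 38039 and 61274 in the other WT Mid libraries and 15746 to 21522 in ΔHx Mid. Those other WT Mid libraries also lay above every ΔHx Mid library. limma called 7 of the 8 markers lower in ΔHx Mid than in WT Mid (median log2 difference -2.59). Reads fell on the smallest number of genes in ΔHx High replicate 3, at 15649 against up to 17917 elsewhere. Results on these groups are given with and without WT Mid replicate 1 and ΔHx High replicate 3 where they differ.

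Between gates the G1 genes fell into 3 patterns, which both genotypes shared in direction. Cdkn1b was highest in High and lowest in Neg, while Ccnd3, Cdk6 and, less steeply, Cdk4 were lowest in High. Ccnd2 was lowest in Mid and Cdkn1a highest there. Ccnd1, Rb1, Rbl1 and Rbl2 passed the test in no gate comparison. In WT, 4 of the 10 differed between High and Neg, 5 between Mid and Neg and 4 between High and Mid, against 44.4%, 32.9% and 24.4% of all tested genes. In ΔHx the counts were 4, 5 and 3, against 42.6%, 34.3% and 25.6%. Of all tested genes 22.6% were higher and 21.8% lower in WT High than Neg, 17.4% and 15.4% in Mid than Neg, and 12.1% and 12.4% in High than Mid (ΔHx 21.5% and 21.1%, 17.9% and 16.5%, and 13.3% and 12.3%). In WT the libraries of 6, 4 and 5 members did not overlap in these comparisons, against 54.7%, 44.6% and 35.4% of all genes, and in ΔHx those of 6, 7 and 4, against 54.7%, 50.6% and 39.1%. With 10 genes these shares are coarse, and nothing about the members is read from them. The median log2 difference of the 10 genes in WT was -0.09 for High minus Neg, 0.05 for Mid minus Neg and -0.17 for High minus Mid, beside 0.02, -0.0018 and -0.01 over all tested genes. Comparisons that use the same gate share its libraries. All tests are limma fits to log2(value + 1) over the 18 libraries with Benjamini-Hochberg adjustment over all tested genes, and differences are on that scale, which understates those of low genes. The p-values weigh a difference against the spread between libraries, pooled over all groups and moderated across genes. They do not reflect the spread of the compared groups alone.

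**Figure D1:**
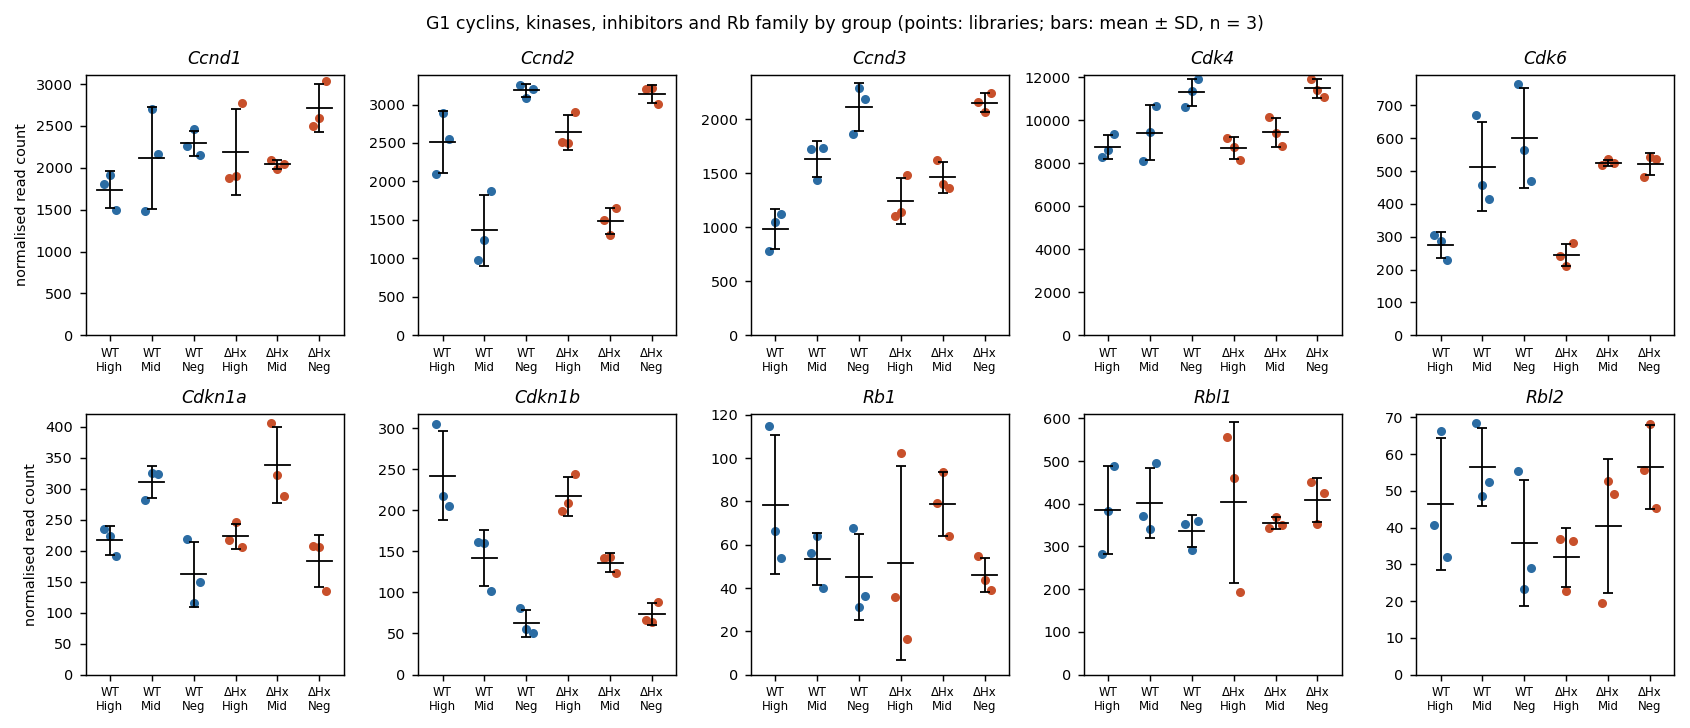
Normalised read counts of the 10 genes in each of the 18 libraries, by gate and genotype (points are libraries, bars the mean ± SD of 3). Cdkn1b falls from High to Neg, Ccnd3 runs the other way, and Ccnd2 has its lowest values in the Mid libraries.

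Ccnd3 (chr17:47505051-47599691, + strand, mm10) encodes cyclin D3. WT High libraries held 779, 1050.3 and 1127, WT Mid 1723, 1441 and 1731, and WT Neg 1868, 2296 and 2187. ΔHx High libraries held 1108, 1139 and 1489, ΔHx Mid 1628, 1403 and 1364, and ΔHx Neg 2159, 2069.6 and 2241. No High library reached a Neg library in either genotype. The difference of High minus Neg was -1.11 in WT (SE 0.14, adjusted p = 2.18e-06) and -0.80 in ΔHx (SE 0.14, adjusted p = 9.90e-05). Mid was also below Neg, by a log2 difference of -0.37 in WT (adjusted p = 0.0421) and -0.56 in ΔHx (adjusted p = 0.00386). The WT call of Mid below Neg was lost without WT Mid replicate 1 (-0.42, adjusted p = 0.051), without WT Mid replicate 2 (-0.29, adjusted p = 0.172) and without WT Neg replicate 2 or 3 (-0.31 and -0.35, adjusted p = 0.151 and 0.116). High was below Mid in WT (-0.74, adjusted p = 0.000517), while in ΔHx the value was -0.24 (adjusted p = 0.21). Without ΔHx High replicate 3 the ΔHx value was -0.38 (adjusted p = 0.063), and with array weights it was -0.33 and was called (adjusted p = 0.0337). That difference between genotypes was itself 0.50 (SE 0.19) with an adjusted p of 0.699, and 0.36 (adjusted p = 0.962) without that library, so it did not pass. Ccnd3 shares 361 exon bases, 4.11% of its exons, with Bysl on the other strand, and the reads carry no strand. Bysl ran the same way (808 ± 52.3, 1156 ± 162 and 1518 ± 126 in WT High, Mid and Neg), and its part in the Ccnd3 counts was not tested.

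Ccnd2 (chr6:127125162-127152193, − strand) encodes cyclin D2, the form with the sharpest dip in Mid cells. WT Mid held 975, 1242 and 1869.9, and ΔHx Mid 1504, 1303 and 1651. WT High held 2094, 2896 and 2555, and WT Neg 3258, 3086 and 3207. ΔHx High held 2514, 2501 and 2903, and ΔHx Neg 3201, 3209.9 and 3005. Every Mid library lay below every High and every Neg library of its genotype. Mid minus Neg was -1.28 in WT (SE 0.16, adjusted p = 8.49e-06) and -1.08 in ΔHx (SE 0.16, adjusted p = 5.85e-05). High minus Mid was 0.92 in WT (adjusted p = 0.000357) and 0.83 in ΔHx (adjusted p = 0.000905). Without WT Mid replicate 1, the lowest library, WT Mid minus Neg was -1.06 (adjusted p = 2.73e-05). High minus Neg was -0.35 in WT (limma adjusted p = 0.0897) and -0.25 in ΔHx (adjusted p = 0.23). Neither was called, though High lay below Neg without overlap in both genotypes. A fit of the WT groups alone called the WT difference (adjusted p = 0.0266). With edgeR and DESeq2 it did not pass (adjusted p = 0.103 and 0.0999).

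Ccnd1 (chr7:144929931-144939925, − strand) encodes cyclin D1. WT High held 1808, 1915 and 1495, WT Mid 1479.6, 2702 and 2165, and WT Neg 2261, 2458 and 2153. The ΔHx values were 1880.1, 1905 and 2779 (High), 2092, 1984 and 2050.3 (Mid), and 2495, 2599 and 3036 (Neg). WT High lay below WT Neg without overlap, with a log2 difference of -0.40 and an adjusted p of 0.0636. It was called with array weights (-0.33, adjusted p = 0.038) and in a fit of those groups alone (adjusted p = 0.0115). With edgeR and DESeq2 it was not (adjusted p = 0.0658 and 0.0618). ΔHx Mid lay below ΔHx Neg without overlap too (-0.40, limma adjusted p = 0.076). Of its annotated exon bases 23.4% overlap LTO1, a gene on the other strand.

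Taken per kilobase of the longest coding transcript, the D cyclins can be set against each other within a library. Ccnd2 made 29.8% ± 1.65 of their sum in WT High, 13.7% ± 3.31 in WT Mid and 23.8% ± 1.92 in WT Neg, and 26.4% ± 2.08, 15.9% ± 1.75 and 22.2% ± 1.69 in ΔHx. Ccnd3 made 35.0% ± 4.47, 50.2% ± 8.71 and 47.2% ± 2.69 in WT High, Mid and Neg. Ccnd3 had the largest mean share in WT Mid and Neg, but in WT Mid replicate 2 Ccnd1 (45.1%) was ahead of it (42.6%). Which cyclin leads depends on the length used: with the union of all annotated exons, which is 8775 bases against 2113 for Ccnd3, Ccnd1 was ahead in every group with 45.6% to 57.2%. The summed level of all 3 per kilobase was 1329 ± 142 in WT High, 1553 ± 169 in WT Mid and 2117 ± 114 in WT Neg.

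**Figure D2:**
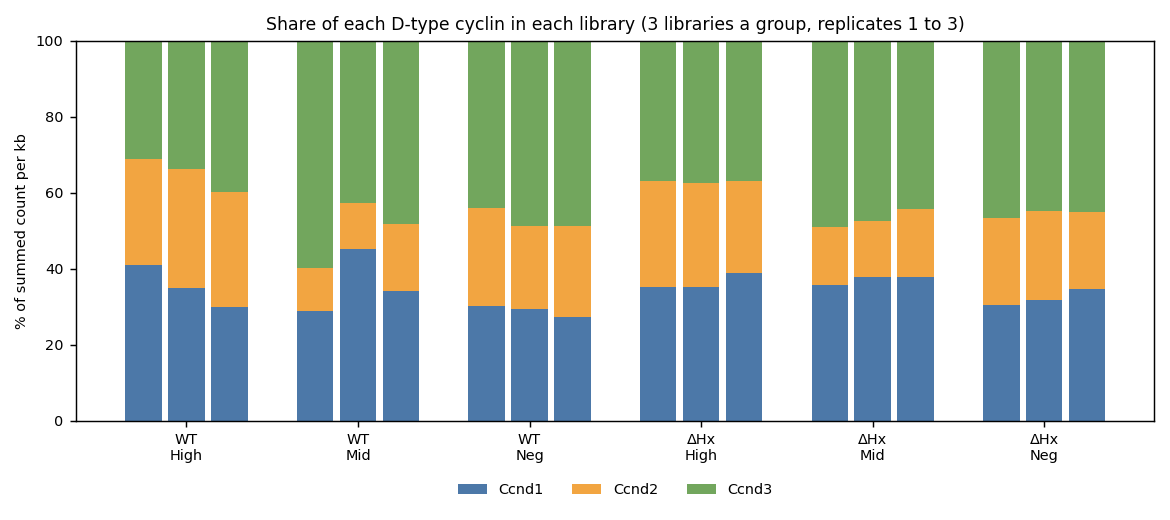
Share of each D cyclin, in percent of their summed count per kilobase of the longest coding transcript, in each of the 18 libraries (1 stacked bar a library). Ccnd2 has its smallest mean share in Mid, 13.7% in WT and 15.9% in ΔHx.

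Cdk4 (chr10:127063534-127067920, + strand) encodes the main partner kinase and was the most abundant of the 10 per kilobase in every group, at 5509 per kilobase of the longest coding transcript in WT Neg against 1002 for Ccnd3, the next. With the union of exons the next was Ccnd1, at 486 against 3481. Counts in WT were 8275, 8647 and 9381 (High), 8128, 9475 and 10683 (Mid) and 10646, 11374 and 11912 (Neg). Those in ΔHx were 9202, 8741 and 8166 (High), 10161, 9397 and 8799.8 (Mid), and 11944, 11434 and 11082 (Neg). High minus Neg was -0.37 in WT (SE 0.09, adjusted p = 0.00285) and -0.40 in ΔHx (SE 0.09, adjusted p = 0.0015), a narrow shift with no overlap of the libraries. Mid minus Neg was -0.27 in WT (adjusted p = 0.029, libraries overlapping) and -0.28 in ΔHx (adjusted p = 0.022). All 4 calls were lost with quantile normalisation (-0.16, -0.17, -0.16 and -0.15, adjusted p = 0.127, 0.108, 0.145 and 0.178), and WT Mid minus Neg without WT Mid replicate 1 was -0.17 (adjusted p = 0.171). The WT Mid call was also lost with no filter, in a fit of those groups alone, and without WT Mid replicate 2 or WT Neg replicate 2 or 3 (adjusted p = 0.054, 0.0999, 0.0586, 0.0751 and 0.113). The ΔHx Mid call was also lost with equal totals without Rn45s (-0.21, adjusted p = 0.0699). Without ΔHx Mid replicate 2 or 3 or ΔHx Neg replicate 1 or 2 its adjusted p was 0.0562, 0.0961, 0.0833 and 0.0525. Cdk4 shares 641 exon bases with Tspan31 on the other strand, whose values ran the other way (1844 ± 145 in WT High, 1331 ± 154 in WT Neg).

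Cdk6 (chr5:3341485-3531008, + strand), the second cyclin D kinase, was far less abundant: 52.1 per kilobase of the longest coding transcript in WT Neg. In WT it had 304, 288 and 229.6 (High), 669.9, 458 and 414 (Mid), and 766, 565 and 471 (Neg). In ΔHx it had 241, 212 and 280.4 (High), 517, 535 and 525 (Mid), and 483, 544 and 538 (Neg). All High libraries lay below all Mid and Neg libraries, while Mid and Neg overlapped. High minus Neg was -1.11 in WT (SE 0.19, adjusted p = 7.45e-05) and -1.10 in ΔHx (SE 0.19, adjusted p = 9.10e-05). High minus Mid was -0.88 in WT (adjusted p = 0.00154; without WT Mid replicate 1 -0.68, adjusted p = 0.0113) and -1.11 in ΔHx (adjusted p = 0.000195).

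The 250 bases before the transcription start were searched in RefSeq, build GRCm38.p6, which had an entry for 7 of the 10 genes and 9 start sites. Shown are promoters of 4 genes that held letters of a factor of this pathway or of FoxA; Rbl1 is among them though it was called in no comparison, and Cdkn1b is not, as it held none of these. Capitals mark matches on either strand: CACGTG, the E box that Myc family factors bind, in Cdk4; TGTTTAC or TGTTTGC, letters that FoxA factors bind, in Ccnd3; decamers of the p53 consensus in Cdkn1a; TTTCCCGC, TTTCGCGC, TTTGCCGC or TTTGGCGC, letters bound by E2F, in Rbl1. The regions are chr10:127063285-127063534 (+ strand), chr17:47504801-47505050 (+ strand), chr17:29090729-29090978 (+ strand) and chr2:157204535-157204784 (− strand).
Cdk4: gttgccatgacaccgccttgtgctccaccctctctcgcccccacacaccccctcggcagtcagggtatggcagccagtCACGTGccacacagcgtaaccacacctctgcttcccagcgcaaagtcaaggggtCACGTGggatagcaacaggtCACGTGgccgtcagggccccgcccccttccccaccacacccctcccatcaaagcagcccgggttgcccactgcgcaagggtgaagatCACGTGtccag
Ccnd3: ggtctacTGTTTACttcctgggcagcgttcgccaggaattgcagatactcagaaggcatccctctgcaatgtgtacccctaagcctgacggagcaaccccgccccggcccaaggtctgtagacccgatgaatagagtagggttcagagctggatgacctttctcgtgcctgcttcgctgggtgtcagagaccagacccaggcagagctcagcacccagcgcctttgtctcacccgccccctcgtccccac
Cdkn1a: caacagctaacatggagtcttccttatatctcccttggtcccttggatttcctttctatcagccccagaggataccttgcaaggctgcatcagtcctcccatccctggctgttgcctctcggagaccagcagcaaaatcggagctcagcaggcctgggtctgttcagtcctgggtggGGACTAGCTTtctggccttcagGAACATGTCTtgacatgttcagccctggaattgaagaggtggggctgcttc
Rbl1: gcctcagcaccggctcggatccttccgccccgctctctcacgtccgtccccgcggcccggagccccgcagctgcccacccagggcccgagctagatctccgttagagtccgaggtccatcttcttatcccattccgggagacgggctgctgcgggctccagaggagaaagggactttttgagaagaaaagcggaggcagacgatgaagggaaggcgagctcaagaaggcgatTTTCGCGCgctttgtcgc
Of 32851 RefSeq promoters of this length, 6.02% hold the E box, 7.29% the FoxA letters, 7.13% a p53 decamer and 1.86% an E2F match. Of the 9 member promoters 2 hold the E box and 1 each the FoxA letters, a p53 decamer and an E2F match. The promoters of Cdkn1b and Rbl2 and the second starts of Ccnd3 and Cdkn1a hold none of these 4. CCAAT, also searched, is in 2 of the 9, those of Cdkn1b and of the second Ccnd3 start, and in 33.8% of all. Cdk4 has 4 E boxes, at 172, 118, 98 and 11 bases before its start, and Cdk6 has 1, at 220. The Ccnd3 match lies 243 bases before the upstream of its 2 starts, and the Cdkn1a decamers lie 73 and 51 bases before the first of its 2. The Rbl1 match lies 18 bases before its start. No bound factor was measured in these libraries, so the letters are given as a description.

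Cdkn1b (chr6:134920401-134925513, + strand) encodes p27, the inhibitor that holds back cyclin E and Cdk2, and it had the largest gate difference of the 10. WT High libraries had 304, 218 and 205, WT Mid 162, 160.5 and 102, and WT Neg 81.3, 55.8 and 50.7. ΔHx High had 199, 208 and 244, ΔHx Mid 142, 143 and 123, and ΔHx Neg 67.0, 64.4 and 88.8. The 3 gates did not overlap in either genotype. High minus Neg was 1.94 in WT (SE 0.24, adjusted p = 2.53e-06) and 1.56 in ΔHx (SE 0.24, adjusted p = 3.66e-05). Mid minus Neg was 1.16 in WT (adjusted p = 0.00112) and 0.90 in ΔHx (adjusted p = 0.00768). High minus Mid was 0.78 in WT (adjusted p = 0.0227), a call lost without WT High replicate 1 (0.61, adjusted p = 0.127) and without WT Mid replicate 3 (0.56, adjusted p = 0.12). A fit of those WT groups alone lost it too (adjusted p = 0.0757). In ΔHx it was 0.67 (adjusted p = 0.0494), a call lost when any library of the groups was left out (0.58 to 0.73, adjusted p up to 0.143). The ΔHx call was also lost with no filter, quantile normalisation and array weights (limma adjusted p = 0.0674, 0.0765 and 0.0564). It was kept with edgeR and DESeq2 (adjusted p = 0.041 and 0.02).

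Cdkn1a (chr17:29090976-29100727, + strand) encodes p21, a target of p53, and peaked in Mid. It was 281, 326 and 324 in WT Mid against 219, 116 and 149 in WT Neg and 235, 224 and 191 in WT High. ΔHx libraries had 406, 322 and 287 (Mid), 208, 206 and 134 (Neg), and 217, 245 and 206 (High). Mid libraries lay above all others of their genotype. Mid minus Neg was 0.98 in WT (SE 0.22, adjusted p = 0.00191) and 0.90 in ΔHx (SE 0.22, adjusted p = 0.00382). High minus Mid was -0.52 in WT (adjusted p = 0.0943) and -0.59 in ΔHx (adjusted p = 0.0551). The ΔHx value passed with edgeR (adjusted p = 0.0432) and DESeq2 (adjusted p = 0.0252), and with the replicate number as a block (adjusted p = 0.0442). Without ΔHx High replicate 3 it was -0.53 and did not pass (adjusted p = 0.14). High minus Neg in WT was 0.47 (adjusted p = 0.0929) and 0.71 without WT Neg replicate 1 (adjusted p = 0.0143).

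The ratio of the inhibitor counts was highest in High, while Mid and Neg libraries overlapped in both genotypes. Cdkn1b to Cdkn1a was 1.11 ± 0.166 in WT High, 0.461 ± 0.133 in WT Mid and 0.398 ± 0.0752 in WT Neg. In ΔHx the ratio was 0.983 ± 0.178, 0.408 ± 0.0504 and 0.432 ± 0.199. The lowest High library, at 0.849, lay above the highest of the others, at 0.662.

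The pocket proteins are the substrates of the cyclin D kinases. Rbl1 was the most abundant of them, 194 to 556 over the 18 libraries. Rb1 ran from 16.5 to 115 and Rbl2 from 19.5 to 68.1, resting on as few as 20 and 21 reads in a library. None passed between gates, and the 95% interval of Rb1 High minus Neg in WT ran from -0.22 to 1.80. For Rbl1, with 235 to 634 reads in a library, it ran from -0.41 to 0.75. Exons of Rb1 and Rbl2 overlap genes on the other strand, and the part of those genes in the counts was not tested. Rb1 shares 408 exon bases (6.78%) with Lpar6, which had 862 ± 132 in WT High and 442 ± 4.83 in WT Neg, and 488 (8.11%) with Rcbtb2, at 1646 ± 338 and 1729 ± 73.2. Rbl2 shares 693 (9.17%) with Aktip, at 706 ± 82.5 and 407 ± 19.2. Within ΔHx High, replicate 3 had the lowest Rbl1 (194 against 556 and 460.1) and the lowest Rb1 (16.5 against 36.0 and 102). Per kilobase of the longest coding transcript the order in WT Neg was Cdk4, Ccnd3, Ccnd1, Ccnd2, Cdkn1a, Rbl1, Cdk6, Cdkn1b, Rb1 and Rbl2. The neighbours from Cdkn1a to Cdk6, and from Cdkn1b to Rbl2, overlapped there. With the union of exons Ccnd1 (486 per kilobase), Ccnd2 (338) and Ccnd3 (241) followed Cdk4 in WT Neg, and Rbl1 preceded Cdkn1a. In WT High, Cdkn1b at 53.2 per kilobase of the longest coding transcript stood above Cdk6 at 23.8.

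**Figure D3:**
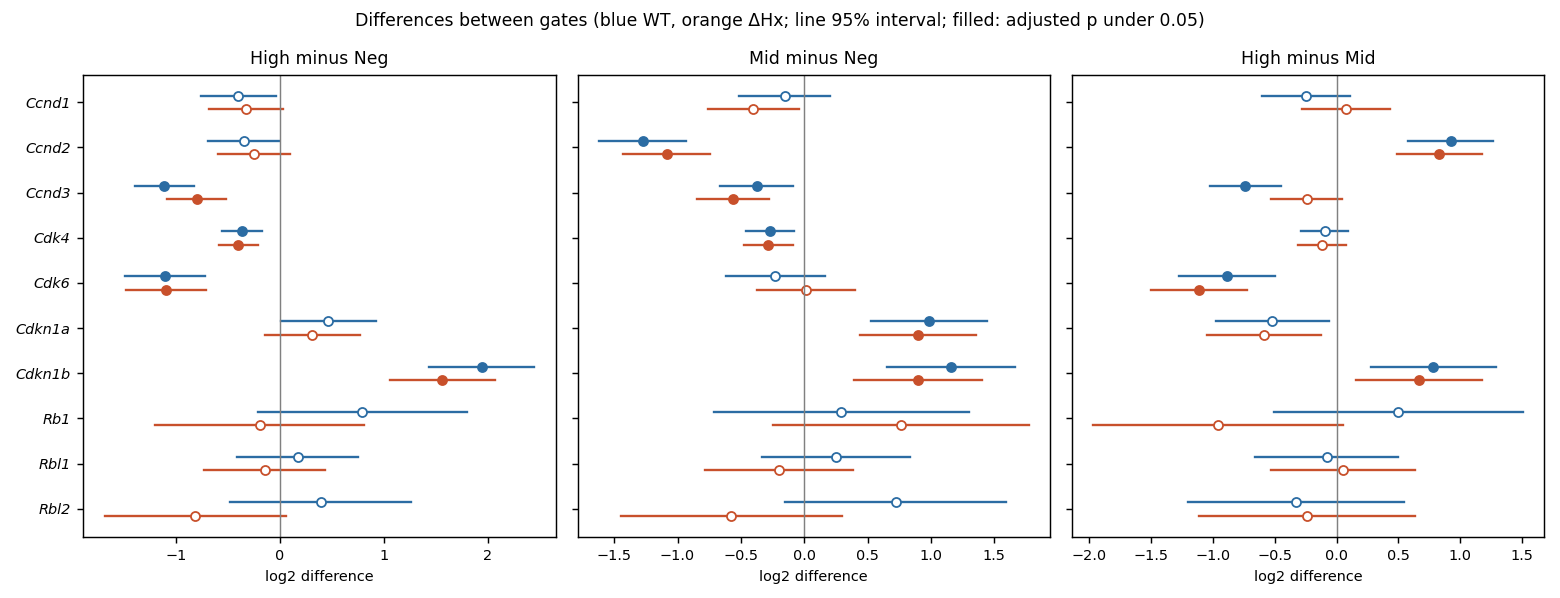
Log2 differences between gates for the 10 genes in WT and ΔHx (points; lines are 95% intervals; filled where the adjusted p is under 0.05). Cdkn1b lies furthest to the positive side in High minus Neg, 1.94 in WT, and Ccnd2 furthest to the negative side in Mid minus Neg, -1.28 in WT.

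The members also varied together across libraries. Over the 18 libraries, which share gates, Cdkn1b ran opposite to Cdk4 (Pearson r = -0.912 of log2 values) and Ccnd3 (r = -0.897), and Ccnd2 opposite to Cdkn1a (r = -0.753). Ccnd3 ran with Cdk4 (r = 0.788) and Cdk6 (r = 0.715). The tested genes most like Cdkn1b were Ccdc146 and Clcn2, both at r = 0.972. Ccdc146 had 319 ± 48.8 in WT High and 1.57 ± 1.91 in WT Neg. For Ccnd3 they were Bysl (r = 0.964) and Stard7 (r = 0.963), for Ccnd2 Zfp219 (r = 0.941) and E2f5 (r = 0.932), and for Cdk4 Atp5a1 (r = 0.976) and Slc16a3 (r = 0.965). E2f5, an E2F factor that pairs with pocket proteins, had 879 ± 206 in WT Mid against 1146 ± 59.9 in WT High and 1352 ± 70.0 in WT Neg. As E2f5 was picked for its r with Ccnd2, sharing the dip in Mid follows from that choice. Cdk6 was most like Snhg3 (r = 0.947) and Gt(ROSA)26Sor (r = 0.942), and Cdkn1a like Tmem82 (r = 0.916) and Dmrta1 (r = 0.902). For Ccnd1 (Zfp346, r = 0.85), Rb1 (Itpr1, r = 0.82), Rbl1 (Pcdhgb7, r = 0.824) and Rbl2 (Chac2, r = 0.766) the best matches were weaker.

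None of the 10 genes was called between the genotypes in any gate. In Mid the libraries compared also differed in parietal endoderm markers, which were lower in ΔHx. limma called 0.122% of all tested genes between ΔHx and WT in High, 0.401% in Mid and 0.245% in Neg, and 0 of the 10 members. Before adjustment only Ccnd3 in High was under 0.05 with limma, and no member in Mid or Neg was. Over all genes 1157, 1171 and 614 had an unadjusted p under 0.05. edgeR and DESeq2 on the recovered reads also called 0 members in each gate. For Ccnd3 in High the log2 difference was 0.34 (95% interval 0.06 to 0.63, adjusted p = 0.536), and 0.21 without ΔHx High replicate 3. For Cdkn1b in High it was -0.14 (interval -0.65 to 0.37, adjusted p = 0.921), with means of 217 in ΔHx and 242 in WT. Cdk4 was narrowest, with intervals within -0.20 to 0.21 in all 3 gates. Rb1 in High was -0.90 (interval -1.90 to 0.11, adjusted p = 0.671) and -0.29 without ΔHx High replicate 3. In Neg, Ccnd1 was 2495 to 3036 in ΔHx and 2153 to 2458 in WT, without overlap, at a difference of 0.24 (adjusted p = 1). It was the only member that did not overlap between genotypes (0 in High, 0 in Mid, 1 in Neg), against 10.9%, 10.9% and 12.7% of all tested genes. The test of whether the genotype effect differed between gates called 0 members, and 0%, 0.0068% and 0.0136% of all genes (High against Neg, Mid against Neg and High against Mid).

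**Figure D4:**
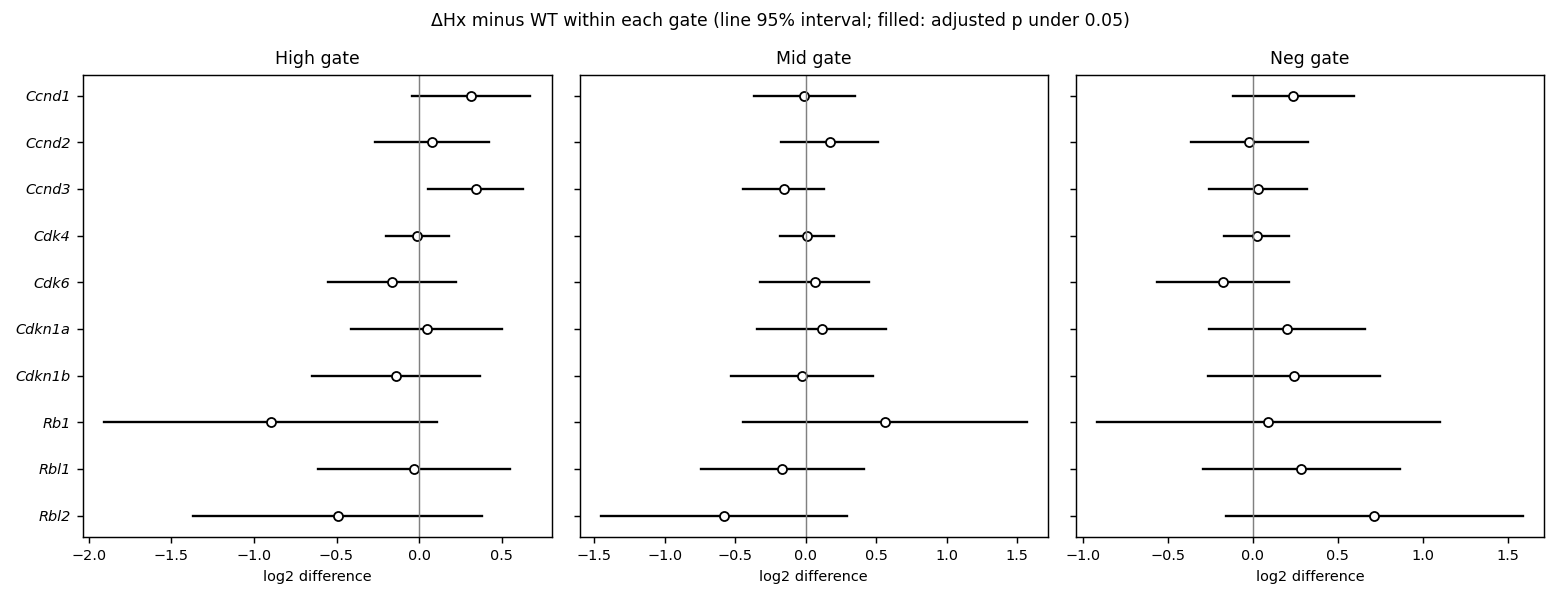
Log2 differences of ΔHx minus WT for the 10 genes in each gate (points; lines are 95% intervals; filled where the adjusted p is under 0.05). No point is filled; the intervals of Cdk4 are short and those of Rb1 and Rbl2 long.

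The rest of the pathway was followed in 9 lists with 105 genes. Of 20 S phase genes that E2F drives, 19 were lower in WT High than WT Neg and 0 higher, with a median of -0.83 (all genes 0.02), against 21.8% of all genes lower. Gins1 was the exception (-0.29, adjusted p = 0.0573), singled out after its value was seen. Rrm2, a subunit of ribonucleotide reductase, was 3382 ± 497 in High and 8511 ± 111 in Neg (-1.34, adjusted p = 9.51e-09). Pcna, the polymerase clamp, was 2103 ± 1.97 and 4121 ± 95.4 (-0.97, adjusted p = 1.06e-08). In WT Mid 16 of 20 were below Neg, against 15.4% of all genes. In ΔHx the counts for High and Mid were 19 and 16, against 21.1% and 16.5%.

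Ccne1, cyclin E1, stepped down from 3440.4 ± 254 in WT Neg to 2223 ± 250.2 in Mid and 1302 ± 92.1 in High (High minus Neg -1.40, adjusted p = 6.93e-10). Ccne2 and Ccna2, cyclins E2 and A2, were lower in High too (-1.19 and -0.91, adjusted p = 4.69e-06 and 8.47e-06). With Wee1 they made 4 of 7 genes of that list lower in WT and 0 higher, against 21.8% and 22.6% of all genes. In ΔHx 5 were lower, against 21.1%. Mitotic genes did not follow as evenly: in WT High 8 of 20 were below Neg and 1 above, against 21.8% and 22.6% of all genes. The median of the list was -0.29 (all genes 0.02). The gene above was Mki67 (0.59, adjusted p = 0.028). The count below ran from 1 with quantile normalisation to 13 with array weights (5 without WT High replicate 2, 4 without WT Neg replicate 3). The Mki67 call was lost without WT High replicate 1 or 2 and without WT Neg replicate 2 or 3. In WT Mid 15 of 20 were below Neg, against 15.4% of all genes, and 8 without WT Mid replicate 1. Between High and Mid, 9 S phase genes were lower in WT High and 0 higher, whereas 0 mitotic genes were lower and 3 higher. Of all genes 12.4% were lower and 12.1% higher there, so the 3 of 20 mitotic genes are near that share. A fit of those groups alone called 5 S phase genes and 0 mitotic genes, and quantile normalisation called 9 mitotic genes higher. The mitotic count was also 0 without WT High replicate 3 or WT Mid replicate 1, 1 without WT Mid replicate 2 and 8 without WT Mid replicate 3.

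Of 10 E2F and DP factors 3 were lower in WT High than Neg, near the 21.8% of all genes, among them Tfdp1 (1405 ± 161 against 2386 ± 38.7; -0.77, adjusted p = 2.90e-06) and E2f3 (-0.55, adjusted p = 0.00121), and 6 with quantile normalisation. Of the 6 genes of the MuvB core and B-Myb, which partner the pocket proteins, 3 were lower, against 21.8% of all genes. Mybl2 was 321 ± 71.9 in WT High and 656 ± 127 in WT Neg. Skp2, the ubiquitin ligase subunit that marks p27 for breakdown, ran opposite to Cdkn1b: it was 927 ± 129.7 in WT High and 1762 ± 92.6 in WT Neg (-0.93, adjusted p = 1.78e-05). Of the 9 genes of its list 5 were lower in High and 1 higher, against 21.8% and 22.6% of all genes. With quantile normalisation 3 were lower, and 0 were higher without WT High replicate 1 or 2 or WT Neg replicate 2 or 3.

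Of 11 upstream growth regulators 5 were lower in WT High than Neg and 0 higher, against 21.8% and 22.6% of all genes. Mycn, a Myc factor that drives growth and D cyclin expression, was 251 ± 26.0 in WT High, 1417 ± 144 in Mid and 3005 ± 142 in Neg (High minus Neg -3.58, adjusted p = 5.83e-13). Myc was 433 ± 82.1, 468 ± 88.3 and 778 ± 153 (-0.85, adjusted p = 0.0019), and Id2, an inhibitor of helix-loop-helix factors, was 427 ± 146, 1635 ± 573 and 1617 ± 298 (-1.97, adjusted p = 1.61e-06).

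Cdkn1a is a target of p53. Of 16 tested genes of the p53 list 3 were higher and 4 lower in WT High than Neg, against 22.6% and 21.8% of all genes. In WT Mid 3 were higher and 4 lower (1 lower in a fit of those groups alone), against 17.4% and 15.4%. In High the 7 of 16 called are near the 44.4% of all genes. Btg2, an antiproliferative factor, was 610.2 ± 58.9 in WT Mid, 461 ± 52.0 in High and 207 ± 40.1 in Neg (Mid minus Neg 1.57, adjusted p = 4.53e-07). Perp and Trp53inp1 were the other 2 above Neg in both gates. Zmat3, named after its value was seen, was the only gene of the 9 lists called between genotypes: in High it was 404 ± 27.4 in WT and 226 ± 20.3 in ΔHx (-0.83, adjusted p = 0.0183), a call lost in a fit of those groups alone, without WT High replicate 1 or 2, and without ΔHx High replicate 1 or 3. Of the other CDK inhibitors, Cdkn2b was higher in WT High than Neg at a low level (25.0 ± 10.5 against 6.99 ± 4.43; 1.78, adjusted p = 0.0217) but not called in ΔHx (8.42 ± 4.11 against 7.50 ± 6.47), and Cdkn1c was not called (886 ± 419 against 828 ± 66.1).

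**Figure D5:**
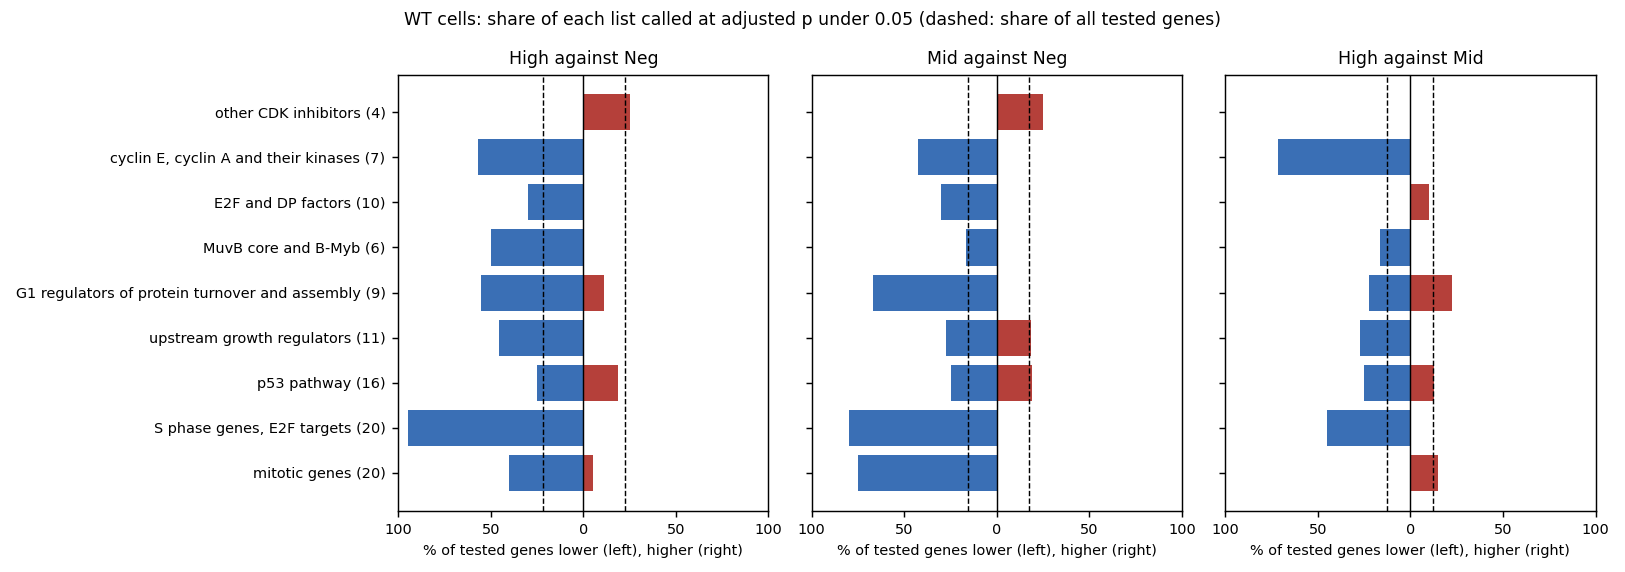
Percent of the tested genes of each pathway list called higher (right) or lower (left) between gates in WT (bars; dashed lines give the share of all tested genes). S phase genes are nearly all on the lower side in High against Neg, 19 of 20 in WT, while p53 genes lie on both sides.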

How the data were processed

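Gene counts of 18 SMART-Seq2 libraries, read from 1 end for 75 bases without strand, were deposited by the authors as signal: counts divided by 1 size factor per library, 24498 genes and 5 counter lines (no feature, 7.17% to 12.1% of all counted, ambiguous 0.495% to 0.756%, not unique 37.7% to 41.3%), which stayed out of all tests. Per the submitters' processing notes the tools were STAR 2.5.2a, HTSeq 0.6.1, DESeq and DESeq2 with mm10; settings and annotation are not given in the sources used here. All 440964 of 440964 values were whole multiples of what 1 read is worth, within 1e-06 reads, so reads were recovered for the count tests.

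The 14711 genes that reached 10 in 3 or more libraries were tested. limma 3.58.1 (R 4.3.3, trend) was fitted to log2(value + 1) with 6 group means, two-sided, with Benjamini-Hochberg adjustment per contrast; calls are adjusted p-values under 0.05. There were 9 pairwise contrasts and 3 differences of genotype effects. The fit was checked on simulated data. Refits used another pseudocount (0.5 or 5), another filter (none, or 50), quantile normalisation, equal totals without Rn45s, array weights, a replicate block, only the groups compared, edgeR 4.0.16 and DESeq2 1.42.0 on the recovered reads, and each library left out; running them on the pathway lists was chosen after seeing the data. Named genes were the 10 members, up to 3 genes of each pathway list with the smallest adjusted p, and the 2 genes with the highest r to each member. Other pathway genes were named after their values were seen, also where the text does not say so. The members and lists were chosen with earlier results of these data known. Gene positions and lengths are from the GENCODE annotation of mm10.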

Additional observations from a re-analysis of the deposited data

How the results depend on the processing

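Of 25 called member differences, 18 kept their call in every refit, and 7 lost it in at least 1. Over 425 refits 391 kept call and direction, 34 lost the call and 0 reversed. The count of members called between WT Mid and Neg, 5, was 3 with no filter, 3 with quantile normalisation, and 3 to 5 with a library left out. The lost calls there were those of Ccnd3 and Cdk4, the smallest differences. The genotype comparisons gave 0 members in all 120 refits. Among differences that were not called, Cdkn1b in High between genotypes reversed from -0.14 to 0.035 without WT High replicate 1, and Cdkn1a in Mid from 0.11 to -0.026 without ΔHx Mid replicate 1, with ranges of -0.25 to 0.035 and -0.026 to 0.22 over the libraries left out; the cause was not tested. Equal totals without Rn45s moved the median of all genes to 0.13 for WT High minus Neg and 0.11 for ΔHx, and quantile normalisation to -0.09 and -0.08. Over all genes the count called between genotypes in High, 18, ran from 3 to 96 over the refits, in Mid, 59, from 3 to 267, and in Neg, 36, from 10 to 91.

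Libraries with the same number were not taken as pairs: the correlation of deviations between same-numbered libraries ran from -0.171 to 0.291 and exceeded 0.1 for every pair in no comparison. In the 6 gate comparisons each library correlated best with its own number, a hint from the data and not from the design. The replicate block joined equal numbers across both genotypes, and a block within each genotype was not fitted. It therefore cannot show whether pairing within a genotype matters. With it 4, 5 and 4 members were called in WT and 4, 5 and 3 in ΔHx. There Cdkn1b between ΔHx High and Mid lost its call (0.67, limma adjusted p = 0.0512) and Cdkn1a gained one (-0.59, adjusted p = 0.0442).

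Rb1 and Rbl2 rest on 20 to 113 and 21 to 73 reads per library, which limits their precision.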
